A study of Mus musculus with 12 samples.

Results

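Chaperone-mediated autophagy (CMA) carries single cytosolic proteins into lysosomes, and the genes described here encode 10 of its working parts: the lysosomal receptor Lamp2, the chaperones Hspa8, Hsp90aa1 and Hsp90ab1, the co-chaperones St13, Stip1 and Bag1, and the regulators Eef1a1, Phlpp1 and Rictor. They were picked by symbol, with 1 array row per symbol (the row with the highest mean over all 12 arrays), and make up 10 of the 20719 genes tested. Expression was measured in mouse liver on Affymetrix whole-transcript arrays in 4 groups of 3 arrays, each taken as 1 mouse. The groups were wild type (WT) fed, WT starved, knock-out (KO) fed and KO starved. Both fed groups ate standard chow, and both starved groups went without food for 24 h with free access to water.

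The KO mice, labelled as deficient in CMA, came from crossing C57BL/6 Albumin-Cre mice with mice whose lamp2 gene carries loxP sites around exon 9A. Albumin-Cre drives recombination in hepatocytes, and the Cre acts only where that promoter is used. Which other liver cells kept the exon was not tested. Several lines were bred, and whether the WT mice carried Cre or the loxP sites was not stated in the labels read here, nor were age and sex.

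In CMA, the cytosolic chaperone Hsc70, the product of Hspa8, recognises a pentapeptide motif of the KFERQ type in a substrate protein and brings it to LAMP-2A at the lysosomal membrane. LAMP-2A is the splice form of Lamp2 that uses exon 9A; it assembles into a multimeric complex through which the unfolded substrate crosses. In rodent liver the pathway is known to be active in prolonged starvation, when it delivers amino acids and removes metabolic enzymes. Lamp2 also gives LAMP-2B and LAMP-2C, which share the luminal part of the protein and differ in their last exon.

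All values are log2 expression values, and a difference of 1 is a doubling. Hepatocyte markers were high in every group: 8 of 8 lay above the median gene, and their mean per array ran from 13.14 to 13.62. The 6 lymphocyte markers all lay below the median gene. The arrays differed in how widely gene values spread: 6 arrays had an SD over genes above the median of all 12. These wider arrays were 1 of 3 in each fed group and 2 of 3 in each starved group, so array spread and starvation are partly mixed; the cause of the spread was not tested. Among markers of other cells, Alas2 and Car1, genes of red blood cells, were lower in starved livers, at -1.30 (SE 0.13, adjusted p = 0.000266) and -1.78 (SE 0.31, adjusted p = 0.00712) averaged over genotype in limma. The other 3 of the 5 red blood cell markers did not pass and had differences above 0, so that the median of the list was 0.10. The mean over the 5 red blood cell markers ran from 8.97 to 9.80 in the WT starved livers and from 10.20 to 10.36 in the WT fed, and from 9.83 to 10.15 against 9.89 to 10.43 in the KO mice. Of 7 stellate cell markers, 6 had averaged differences below 0 (median -0.26) and 1, Pdgfrb, passed, at -0.30 (SE 0.07, adjusted p = 0.0312); their mean ran from 8.10 to 8.40 in WT starved and 8.37 to 8.48 in WT fed livers, and from 8.18 to 8.30 against 8.37 to 8.66 in KO mice. Their part in the results below was not tested.

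Lamp2, the gene that was targeted, gave log2 values of 12.61, 12.24 and 12.25 in the WT fed livers, 12.68, 12.49 and 12.54 in the WT starved, 12.51, 12.81 and 12.49 in the KO fed and 12.33, 12.56 and 12.60 in the KO starved. KO and WT values overlapped in both feeding states, and starved and fed values overlapped in both genotypes. The group means ran in the order KO fed 12.60 ± 0.18, WT starved 12.57 ± 0.10, KO starved 12.50 ± 0.14 and WT fed 12.37 ± 0.21 (SD, n = 3 each), and neighbours in that order differed by less than their spread. In fed mice KO minus WT was 0.24 (SE 0.14, 95% confidence interval -0.06 to 0.54), a 1.18-fold higher mean, and in starved mice it was -0.07 (SE 0.14, interval -0.37 to 0.23). Neither passed limma's test across all genes, with adjusted p = 1.00 for both.

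Probes of such arrays are spread over the transcript, so the Lamp2 value may sum the A, B and C forms. It does not check the loss of exon 9A, and the positions of its probes were not used here. Starved minus fed for Lamp2 was 0.20 in WT mice and -0.11 in KO mice, and the difference between these responses was -0.31 (SE 0.19, interval -0.73 to 0.12). With array spread (wider or narrower) as a block in the fit these differences were 0.12 (SE 0.10) in WT and -0.19 (SE 0.10) in KO mice. Between the wider WT arrays alone, 1 fed and 2 starved, the value was -0.03. The block left KO minus WT in fed mice at 0.24 (SE 0.10, adjusted p = 0.658 in limma). It was 0.19 between the wider fed arrays, 1 per genotype, and 0.26 between the narrower, 2 per genotype. KO minus WT in starved mice was -0.07 (SE 0.10) with the block. The difference between the responses was then -0.31 (SE 0.14, adjusted p = 0.854 in limma). In bulk liver, fewer cells of a type and less RNA per cell cannot be told apart.

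The stretch of 250 bases before the start of Lamp2 is shown because it is the regulatory sequence of the targeted gene, which lies outside the exon removed. It is at chrX:38456461-38456710 on the minus strand of GRCm38.p6, from RefSeq, and is written 5′ to 3′ on the gene's strand. Capitals mark a match to the CCAAT box.
Lamp2: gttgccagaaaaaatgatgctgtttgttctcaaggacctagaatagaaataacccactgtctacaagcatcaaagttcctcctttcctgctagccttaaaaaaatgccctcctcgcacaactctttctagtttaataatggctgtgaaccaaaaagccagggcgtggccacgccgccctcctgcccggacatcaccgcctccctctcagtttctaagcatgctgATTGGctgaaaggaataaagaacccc
The match is to CCAAT on the opposite strand, 26 bases before the start. Of 32851 RefSeq mouse promoters of the same length, 33.8% hold CCAAT on either strand. The CACGTG core of the CLEAR element, a motif of lysosomal genes, is in 6.02% of promoters and was not in this window.

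**Figure D1:**
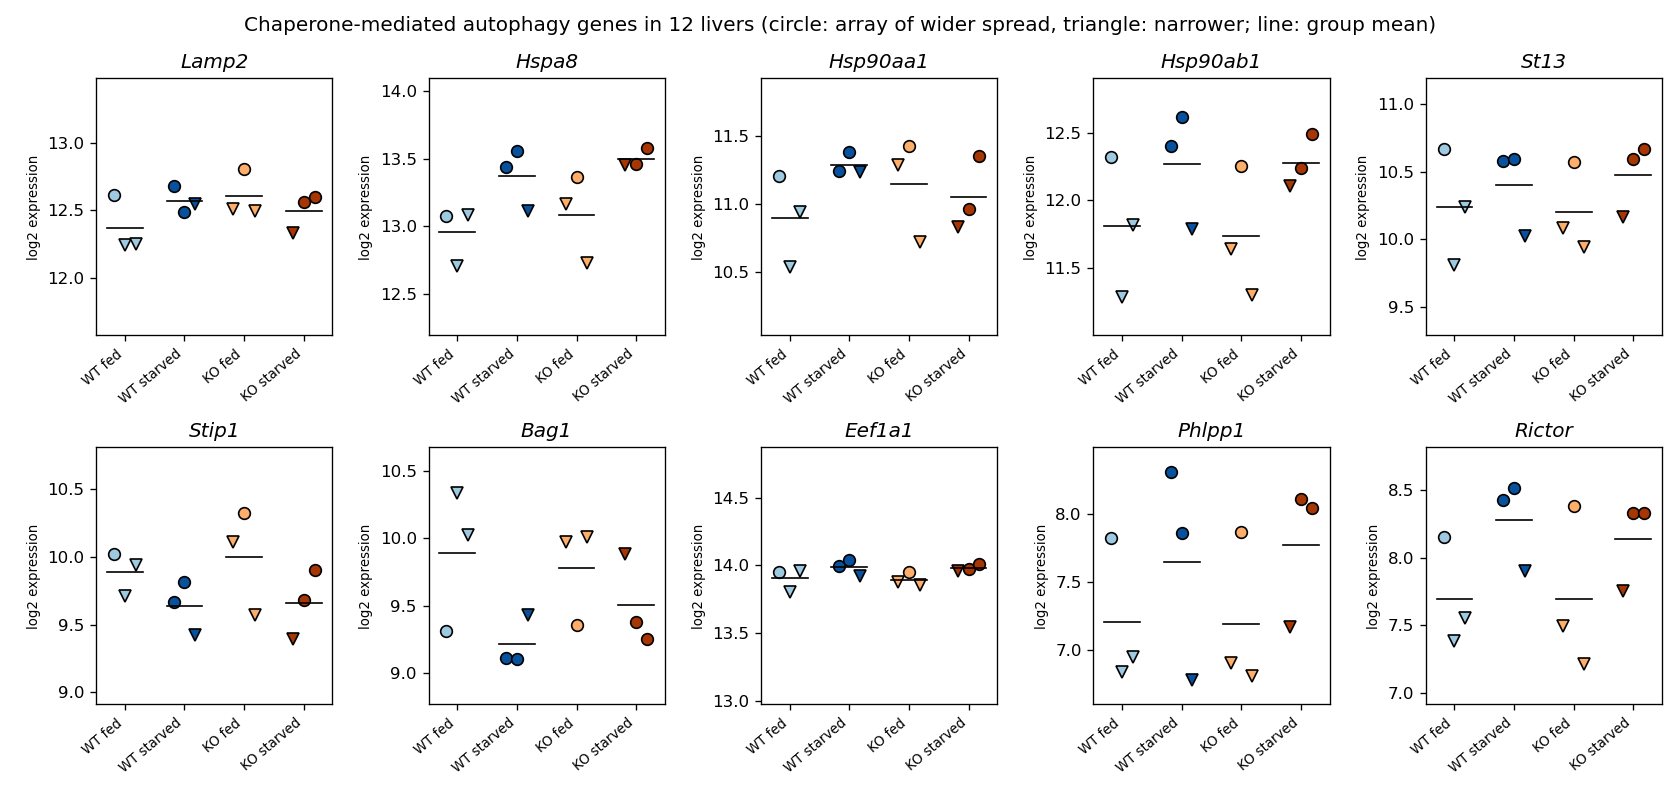
Log2 expression (vertical axis) of the 10 genes in each of the 12 livers, by group (horizontal axis); each point is 1 mouse, the line is the mean of 3, and circles and triangles mark arrays of wider and narrower spread. Lamp2 overlaps in all 4 groups, Hspa8 is higher in the starved than in the fed livers of each genotype, and for Phlpp1 and Rictor the circles lie above the triangles.

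Hspa8, which encodes the chaperone that recognises CMA substrates, had log2 values of 13.07, 12.70 and 13.09 in the WT fed livers, 13.43, 13.55 and 13.11 in the WT starved, 13.16, 13.36 and 12.73 in the KO fed and 13.45, 13.46 and 13.58 in the KO starved. Every starved value lay above every fed value of the same genotype, although the margin in WT mice was small. Starved minus fed was 0.41 (SE 0.18) in each genotype, a 1.33-fold higher mean, with adjusted p = 0.355 in WT and 0.477 in KO mice. Averaged over genotype the difference was 0.41 (SE 0.12, interval 0.14 to 0.69, adjusted p = 0.0886 in limma), which did not pass the threshold of 0.05. It passed without WT starved 3, at 0.48 (adjusted p = 0.0425), or without KO fed F6, at 0.48 (adjusted p = 0.0424). The interval for the difference between the responses of the genotypes ran from -0.55 to 0.54.

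The table has 3 rows for Hspa8 under 1 accession, which differ by at most 0.21 and correlate at 0.94 or more over the arrays. Starved minus fed on the other rows was 0.33 and 0.45 in WT mice and 0.47 and 0.43 in KO mice. On 1 of them the WT groups overlapped, with a lowest starved value of 12.90 against a highest fed value of 13.15. KO minus WT for Hspa8 was 0.13 (SE 0.18) in fed and 0.13 (SE 0.18) in starved mice, within the spread of the groups.

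Hsp90aa1 and Hsp90ab1 encode the stress-inducible and the constitutive cytosolic Hsp90, a chaperone that stabilises LAMP-2A at the luminal face of the lysosomal membrane during its assembly. For Hsp90aa1 the log2 values were 11.21, 10.53 and 10.94 in the WT fed livers, 11.24, 11.38 and 11.23 in the WT starved, 11.29, 11.43 and 10.72 in the KO fed and 10.83, 10.96 and 11.35 in the KO starved. The starved WT values lay above all fed WT values, while the KO groups overlapped. Starved minus fed was 0.39 (SE 0.21, adjusted p = 0.493) in WT mice and -0.10 (SE 0.21, adjusted p = 0.966) in KO mice, and the interaction was -0.49 (SE 0.30, interval -1.15 to 0.17), which did not pass the test. With array spread as a block the differences were 0.28 (SE 0.17) and -0.21 (SE 0.17). The other 2 rows of Hsp90aa1 lie within 0.11 of it on every array.

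Hsp90ab1 measured 12.32, 11.29 and 11.82 in the WT fed livers, 12.41, 12.62 and 11.79 in the WT starved, 11.64, 12.25 and 11.30 in the KO fed and 12.10, 12.24 and 12.49 in the KO starved. Starved and fed livers overlapped in both genotypes. Starved minus fed was 0.46 (SE 0.30) in WT and 0.55 (SE 0.30) in KO mice, and 0.50 (SE 0.21, interval 0.04 to 0.97, adjusted p = 0.243) averaged over genotype. With array spread as a block in the fit the averaged value was 0.29 (SE 0.12, adjusted p = 0.163).

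The co-chaperones act on the ATPase cycle of Hsc70: Hip, from St13, slows the release of ADP, Hop, from Stip1, links Hsc70 to Hsp90, and Bag1 promotes nucleotide exchange and substrate release. Stip1 and Bag1 were the only members with lower means in starved livers of both genotypes. For Stip1 the log2 values were 10.02, 9.71 and 9.94 in the WT fed livers, 9.66, 9.81 and 9.42 in the WT starved, 10.11, 10.33 and 9.57 in the KO fed and 9.39, 9.68 and 9.91 in the KO starved. Fed and starved livers overlapped in each genotype. Starved minus fed was -0.26 (SE 0.20) in WT and -0.34 (SE 0.20) in KO mice, and -0.30 (SE 0.14, interval -0.61 to 0.01, adjusted p = 0.296) averaged over genotype.

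Stip1 ran against array spread: it was higher on wider arrays by 0.35 within groups, while the starved groups held more of these arrays. With array spread as a block, starved minus fed for Stip1 was -0.42 (SE 0.10), and limma's p of 0.0197 after adjustment passed the threshold; 10.8% of all genes passed in that fit. The value was -0.28 between wider WT arrays, -0.40 between narrower WT arrays, -0.53 between wider KO arrays and -0.45 between narrower KO arrays. Each of these set 1 array against 2. The call in the block fit depended on single mice: without KO fed F6 the value was -0.37 (adjusted p = 0.103), and without KO starved S5 it was -0.40 (adjusted p = 0.0952).

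Bag1 gave 9.31, 10.34 and 10.03 in the WT fed livers, 9.12, 9.11 and 9.43 in the WT starved, 9.98, 9.36 and 10.01 in the KO fed and 9.88, 9.38 and 9.26 in the KO starved. The WT starved values lay below 2 of the WT fed values and around that of F1. Starved minus fed was -0.67 (SE 0.27, interval -1.26 to -0.09, adjusted p = 0.310) in WT mice, a mean 0.63 times the fed one, and -0.27 (SE 0.27) in KO mice. The interaction was 0.40 (SE 0.38, interval -0.43 to 1.23). Averaged over genotype the difference was -0.47 (SE 0.19, adjusted p = 0.209), and -0.62 (adjusted p = 0.0437) without WT fed F1; with array spread as a block it was -0.28 (SE 0.09, adjusted p = 0.0744). Bag1 was lower on wider arrays, with no overlap: 9.11 to 9.38 on these against 9.43 to 10.34 on the narrower arrays. With array spread as a block the WT difference was -0.48 (SE 0.12, adjusted p = 0.0415 in limma, where 5.91% of genes passed) and the KO difference -0.08 (SE 0.12). That WT call was lost without any of 10 of the 12 mice, at -0.32 (adjusted p = 0.200) without WT starved 3, and was kept without WT fed F1 or WT starved S3.

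St13 had log2 values of 10.67, 9.81 and 10.24 in the WT fed livers, 10.58, 10.60 and 10.03 in the WT starved, 10.08, 10.58 and 9.94 in the KO fed and 10.16, 10.60 and 10.67 in the KO starved. The groups overlapped in all comparisons, and starved minus fed averaged 0.22 (SE 0.18, adjusted p = 0.593), and 0.03 (SE 0.08) with array spread as a block, where the WT difference was -0.03. A second row of St13, under another accession, differed by up to 1.5 on the same array and correlated at 0.86 with the first; its starved minus fed was 0.11 in WT and 0.42 in KO mice.

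The promoters of Stip1 and Bag1 are shown because these genes had lower means in starved livers of both genotypes and differ in their matches to the TATA and CCAAT boxes. Both are the 250 bases before the start, from RefSeq on GRCm38.p6, minus strand, at chr19:7040027-7040276 and chr4:40948295-40948544, with matches to TATAAA and CCAAT in capitals.
Stip1: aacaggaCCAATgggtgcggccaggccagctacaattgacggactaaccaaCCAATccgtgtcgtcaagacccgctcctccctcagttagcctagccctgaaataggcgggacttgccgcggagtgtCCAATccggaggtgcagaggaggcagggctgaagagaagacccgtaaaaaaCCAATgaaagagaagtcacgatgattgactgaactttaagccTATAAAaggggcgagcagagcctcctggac
Bag1: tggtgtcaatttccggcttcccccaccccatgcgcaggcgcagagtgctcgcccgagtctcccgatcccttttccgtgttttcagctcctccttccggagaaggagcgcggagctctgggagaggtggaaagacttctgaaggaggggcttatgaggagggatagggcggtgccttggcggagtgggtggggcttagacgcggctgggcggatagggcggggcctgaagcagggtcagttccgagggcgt
Stip1 holds TATAAA 30 bases before the start, a sequence found in 12.4% of promoters, and CCAAT at 4 places. Bag1 holds no match to either, and its GC content was 64.0% against 54.4% for Stip1, 47.6% for Lamp2 and a median of 52.4% over promoters. The core of the heat shock element, searched as GAANNTTC on both strands, is in 6.69% of promoters and in none of the 6 member promoters that the RefSeq table holds, namely those of Lamp2, Stip1, Bag1, Eef1a1, Phlpp1 and Rictor. CACGTG was in none of these 6 either.

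Eef1a1, Phlpp1 and Rictor act at the lysosomal membrane. The elongation factor Eef1a1 binds GFAP in a GTP-dependent way and influences the disassembly of the LAMP-2A complex. Rictor is the defining subunit of mTORC2, which phosphorylates lysosomal Akt and restrains CMA, and the phosphatase Phlpp1 removes that phosphate. Eef1a1 varied least: its log2 values were 13.95, 13.80 and 13.96 in the WT fed livers, 13.99, 14.04 and 13.92 in the WT starved, 13.88, 13.95 and 13.85 in the KO fed and 13.96, 13.97 and 14.01 in the KO starved. The KO starved values lay above all KO fed values by a narrow margin, and the WT groups overlapped. Starved minus fed was 0.08 (SE 0.09) in WT and 0.09 (SE 0.09) in KO mice, with adjusted p = 0.752 and 0.903 in limma.

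Phlpp1 measured 7.83, 6.84 and 6.94 in the WT fed livers, 8.32, 7.86 and 6.77 in the WT starved, 6.90, 7.87 and 6.81 in the KO fed and 7.17, 8.11 and 8.04 in the KO starved. Its values fell into a high and a low set that followed array spread in both feeding states: the wider arrays ran from 7.83 to 8.32 and the narrower from 6.77 to 7.17. Starved minus fed averaged 0.52 (SE 0.31, adjusted p = 0.433), and 0.17 (SE 0.09, adjusted p = 0.336) once array spread was a block. Rictor gave 8.15, 7.38 and 7.55 in the WT fed livers, 8.42, 8.52 and 7.90 in the WT starved, 7.50, 8.38 and 7.21 in the KO fed and 7.75, 8.33 and 8.33 in the KO starved. It too was separated by array spread, with levels of 8.15 to 8.52 on wider and 7.21 to 7.90 on narrower arrays. Its averaged starvation difference was 0.51 (SE 0.22, adjusted p = 0.245), and 0.27 (SE 0.09, adjusted p = 0.0714) with the block.

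Between genotypes, no member passed limma's test in fed mice, in starved mice or averaged over feeding (0 of 10 each, and 0% of all genes in each of these contrasts). At an unadjusted p under 0.05 the members again numbered 0 in each, against 2.91%, 3.59% and 4.65% of all genes. No member had genotype groups that were separated, meaning ranges without overlap; among all genes 7.97% did in fed mice, 9.81% in starved mice, and 0.299% had all 6 KO livers on 1 side of all 6 WT livers. The median KO minus WT of the members was -0.005 in fed and 0.02 in starved mice, against -0.01 and -0.03 over all genes. The members' differences ran from -0.11 for Bag1 to 0.25 for Hsp90aa1 in fed mice and from -0.24 for Hsp90aa1 to 0.29 for Bag1 in starved mice. The interaction, which asks whether starvation acted differently in KO mice, called 0 of 10 members and 0% of genes, with 0 members and 2.04% of genes under an unadjusted 0.05.

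**Figure D2:**
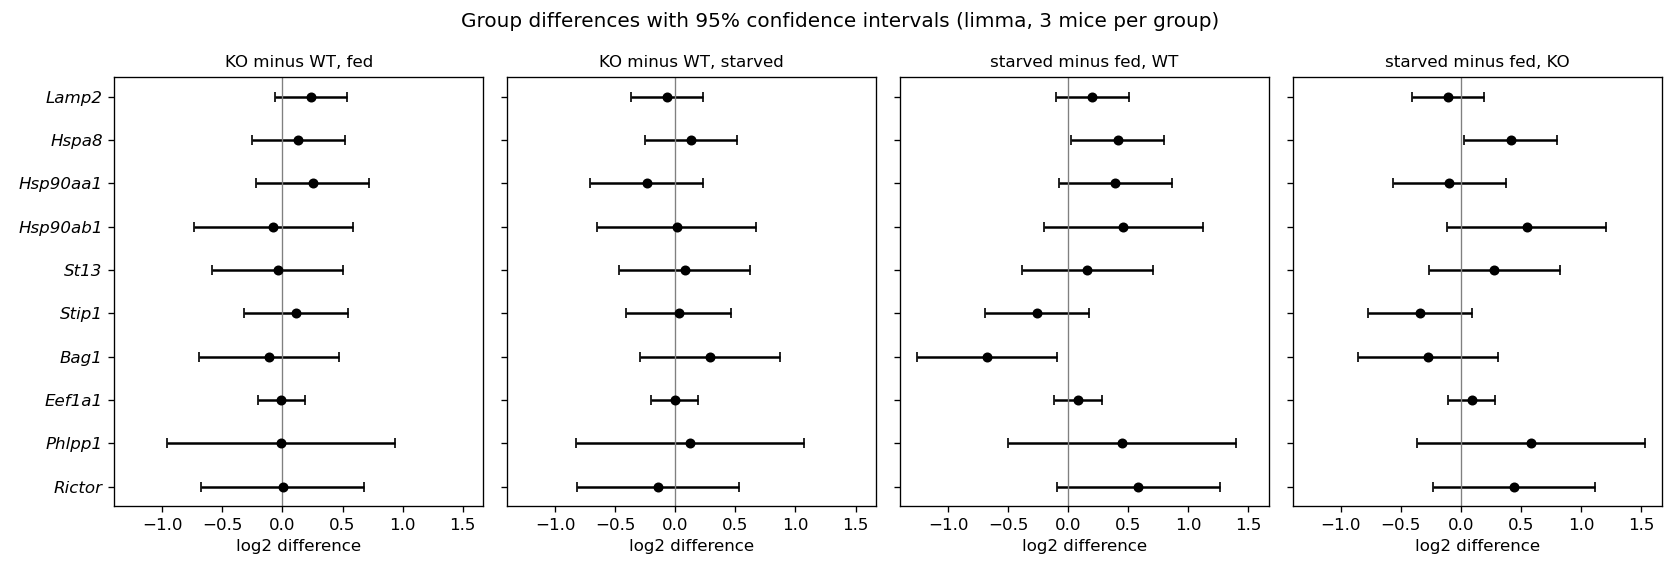
Log2 differences (horizontal axis) of the 10 genes (vertical axis) in 4 comparisons, as points with 95% confidence intervals from limma, 3 mice per group. The intervals of the genotype differences all include 0; those of Hspa8 in both starvation comparisons and of Bag1 in WT mice do not, before adjustment over genes.

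In the starvation comparisons, limma called 0 of 10 members in WT mice, in KO mice and averaged over genotype, where 1.41%, 1.02% and 5.16% of all genes were called. At an unadjusted p under 0.05 there were 2 members in WT mice (Hspa8 and Bag1), 1 in KO mice (Hspa8) and 4 averaged over genotype (Hspa8, Hsp90ab1, Bag1 and Rictor), where 12.7%, 9.32% and 17.7% of genes met that limit. Groups were separated for Hspa8 and Hsp90aa1 in WT mice (2 of 10, against 13% of genes) and for Hspa8 and Eef1a1 in KO mice (2 of 10, against 16.5%). No member had all 6 starved livers on 1 side of all 6 fed ones, against 3.87% of genes. The members' averaged differences had a median of 0.18, with 8 above 0 and 2 below, against a median of -0.02 over all genes. With array spread as a block, Lamp2 was at -0.03, St13 at 0.03 and Hsp90aa1 at 0.04. Only Stip1 lay further from 0 than without the block, at -0.42.

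Array spread moved with these values. The wider and the narrower arrays did not overlap for 5 of 10 members (Hsp90ab1, St13, Phlpp1, Rictor and Bag1), against 17.8% of genes. Within groups, wider minus narrower was 1.04 for Phlpp1, 0.72 for Rictor, 0.63 for Hsp90ab1, 0.56 for St13 and -0.60 for Bag1, where the median size over all genes was 0.18. Starved minus fed kept its sign between wider arrays and between narrower arrays in both genotypes for 5 of 10 members, against 26.3% of genes. These were Hspa8, Hsp90ab1 and Eef1a1, higher in starved livers, and Stip1 and Bag1, lower. Each such difference set 1 array against 2, so it rested on 1 mouse on 1 side. Some were small, such as -0.04 for Bag1 and 0.04 for Eef1a1 between wider KO arrays. For Hspa8 the value was 0.42 and 0.22 in WT mice and 0.16 and 0.51 in KO mice, in wider and narrower arrays respectively, and the averaged value with the block was 0.33 (SE 0.10, adjusted p = 0.0625).

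**Figure D3:**
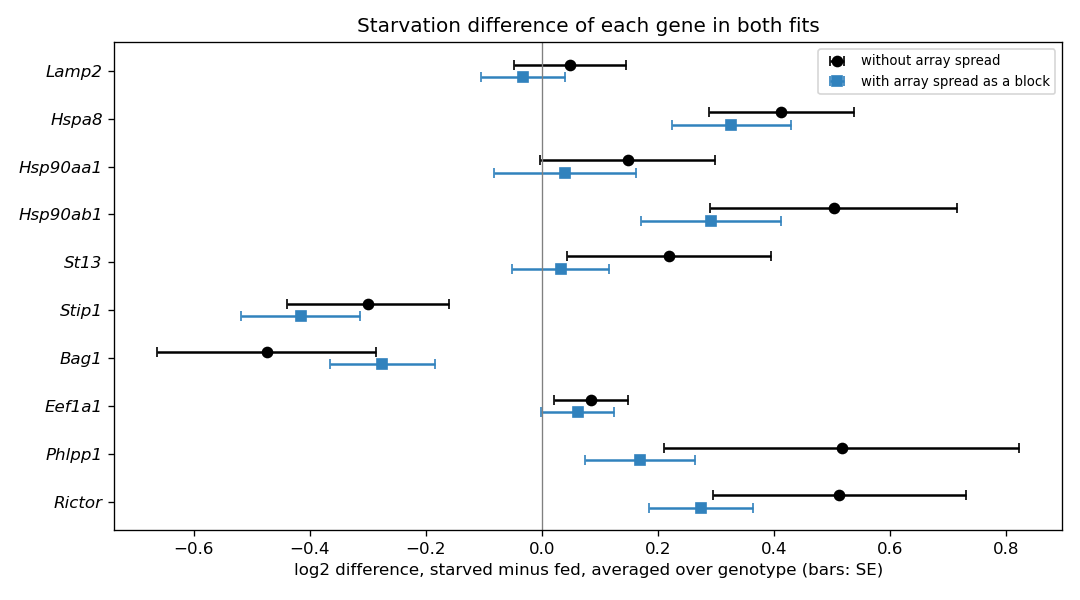
Starved minus fed averaged over genotype (horizontal axis, log2, bars are SE) for each gene (vertical axis), without array spread in the fit (circles) and with it as a block (squares). Phlpp1 moves from 0.52 to 0.17 and Rictor from 0.51 to 0.27, while Stip1 moves from -0.30 to -0.42.

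Several members varied together from mouse to mouse. Across the 12 arrays, which share the feeding groups and the array spread, Hsp90ab1 and Rictor correlated at 0.94, Hsp90ab1 and St13 at 0.93, and Phlpp1 and St13 at 0.93. The wider and narrower arrays did not overlap for any of these genes, and no such correlations over all genes were examined. Bag1 correlated negatively with each of the other 9, from -0.14 with Stip1 to -0.94 with Rictor. Apart from Bag1, Stip1 correlated with the other members at 0.09 (Eef1a1) to 0.51 (Hsp90aa1). Stip1 and Hspa8 correlated at 0.11 over all arrays and at 0.90 once each group's mean was taken off, so they moved together within groups while their starvation differences had opposite signs. Among 9691 genes above the median level, the 5 whose values followed Lamp2 most closely over 12 arrays were Hc (Pearson r = 0.96), Syt1 (0.96), Slc26a11 (0.93), Pigr (0.92) and C4b (0.91). Hc and C4b encode complement components and Pigr the polymeric immunoglobulin receptor. For Hspa8 they were Wdr45 (0.96), Gss (0.96), Tfrc (0.95), Eif3d (0.95) and Anxa7 (0.95); Wdr45 encodes an autophagy protein and Tfrc the transferrin receptor.

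The partners of the members were described through 7 lists of genes. Of 25 further Hsp70 and Hsp90 co-chaperones, 1 rose and 1 fell in starved livers averaged over genotype, and 23 did not pass, where 5.16% of all genes were called; the median of the list was -0.002. Fkbp4 encodes FKBP52, a co-chaperone that binds Hsp90 in steroid receptor complexes. Its log2 values were 9.75, 9.58 and 9.89 in the WT fed livers, 8.70, 8.72 and 8.86 in the WT starved, 9.70, 9.54 and 9.37 in the KO fed and 8.89, 8.91 and 9.00 in the KO starved. All 6 starved livers lay below all 6 fed livers. Fkbp4 fell by 0.98 (adjusted p = 0.00309) in WT mice and by 0.61 (adjusted p = 0.0352) in KO mice, and by 0.79 (SE 0.08, adjusted p = 0.000375) averaged over genotype, each in limma.

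Fkbp5 encodes FKBP51, the related immunophilin, a well-known glucocorticoid-induced gene. It measured 7.54, 7.03 and 7.10 in the WT fed livers, 7.51, 9.50 and 8.65 in the WT starved, 7.01, 7.73 and 6.71 in the KO fed and 8.69, 9.04 and 9.01 in the KO starved. The KO groups were far apart, while WT starved S3 lay within the range of the WT fed livers. Fkbp5 rose by 1.55 (SE 0.29, adjusted p = 0.0104) averaged over genotype. With array spread as a block the values of Fkbp4 and Fkbp5 were -0.79 (adjusted p = 8.37e-05) and 1.42 (adjusted p = 0.00451). Between the wider arrays alone, with 1 fed array per genotype, Fkbp5 was 1.13 higher in starved livers.

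Of 28 reported CMA substrates that were measured, 2 rose, 4 fell and 22 did not pass in starved livers averaged over genotype, with a median of 0.12. Those 6 of 28 compare with 5.16% of all genes called in this contrast. The list was chosen with earlier results of these data known, so this is not a test of an excess. Nfkbia, the inhibitor of NF-kB, rose by 0.55 (SE 0.09, adjusted p = 0.00400). Its values were 8.80, 9.05 and 9.13 in the WT fed livers, 9.44, 9.22 and 9.54 in the WT starved, 8.92, 8.74 and 8.86 in the KO fed and 9.43, 9.63 and 9.55 in the KO starved, with starved above fed in both genotypes. Aldoa, a glycolytic aldolase, rose by 0.93 (SE 0.19, adjusted p = 0.0175). Its values were 10.36, 9.64 and 10.15 in the WT fed livers, 11.19, 11.70 and 10.44 in the WT starved, 10.15, 10.44 and 10.05 in the KO fed and 10.93, 11.00 and 11.12 in the KO starved, again with starved above fed. Aldoa just missed the threshold without KO fed F5 (adjusted p = 0.0517). Between the narrower arrays alone, with 1 starved array per genotype, the differences were 0.69 for Aldoa and 0.50 for Nfkbia.

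Acly, which makes cytosolic acetyl-CoA for lipid synthesis, fell by 1.14 (SE 0.19, adjusted p = 0.00608). It measured 10.55, 9.73 and 10.37 in the WT fed livers, 9.03, 8.74 and 8.98 in the WT starved, 9.69, 10.17 and 9.47 in the KO fed and 8.24, 9.15 and 8.99 in the KO starved, with no overlap. Arntl, which encodes the clock factor BMAL1, fell by 0.70 (SE 0.11, adjusted p = 0.00438). Its values were 8.74, 8.35 and 8.74 in the WT fed livers, 8.14, 8.37 and 8.27 in the WT starved, 8.57, 8.98 and 8.41 in the KO fed and 7.60, 7.53 and 7.69 in the KO starved. In WT mice the starved and fed ranges of Arntl overlapped, and in KO mice they were separated. Between the narrower arrays alone its averaged difference was -0.58. Fasn, the fatty acid synthase, and Anxa2, a membrane-binding annexin, were the other substrates that fell, by 1.25 (SE 0.28, adjusted p = 0.0246) and by 0.66 (SE 0.14, adjusted p = 0.0214); they were named after their values were seen. Fasn missed the threshold without any of 4 mice (adjusted p from 0.0505 without KO fed F5 to 0.0589 without WT starved S3, the others being KO starved S5 and S7). Anxa2 missed it without any of 7, namely WT fed F2 and F4, WT starved S4, KO fed F5 and F8 and KO starved S6 and S7 (adjusted p from 0.0537 to 0.0662), with values from -0.59 to -0.66. Between the wider arrays alone, with 1 fed array per genotype, the Anxa2 difference was -0.36.

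**Figure D4:**
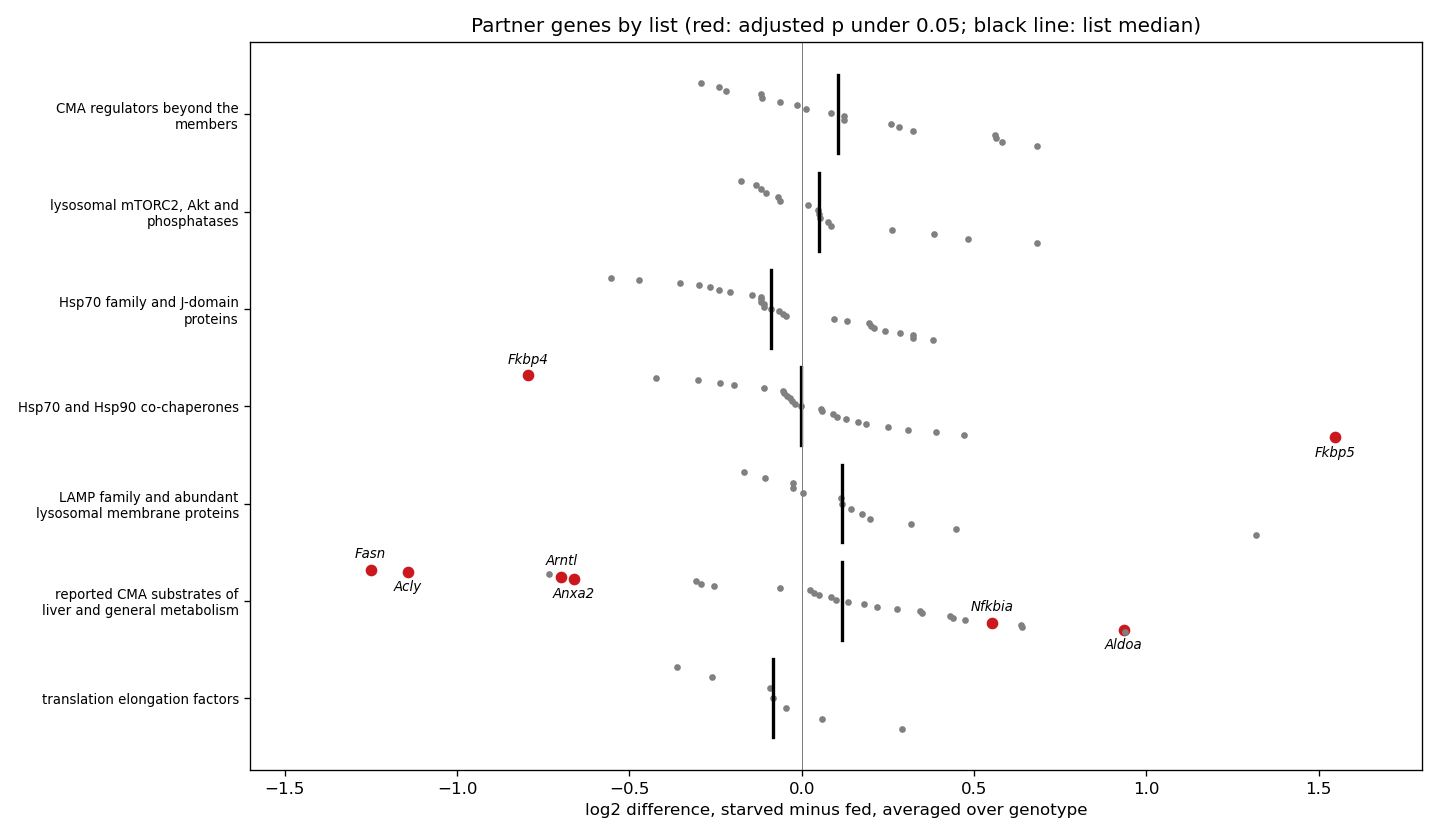
Starved minus fed averaged over genotype (horizontal axis, log2) for each gene of 7 lists (vertical axis); points are genes, red points have an adjusted p under 0.05 in limma, and black lines are list medians. The co-chaperones Fkbp4 (-0.79) and Fkbp5 (1.55) and 6 reported substrates are red, and no gene of the other 5 lists is.

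In the other 5 lists limma called 0 genes in any starvation comparison. The 18 further CMA regulators had a median of 0.10, with values from -0.29 to 0.68. Ctsa, the lysosomal protease that cleaves LAMP-2A, was 0.58 higher (SE 0.26, adjusted p = 0.277), and Gfap, the partner of Eef1a1, differed by 0.01 (SE 0.11). The Gfap difference was 0.22 in WT and -0.20 in KO mice. Its mean level was low, at 5.68, where array medians ran from 6.63 to 6.75. The 16 genes of mTORC2, Akt and phosphatases had a median of 0.05. There Akt1 differed by -0.06 (SE 0.08), Akt2 by -0.12 (SE 0.07), the mTORC2 subunit Mapkap1 by 0.02 (SE 0.07) and Phlpp2, the closest relative of Phlpp1, by 0.05 (SE 0.09).

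The 27 measured Hsp70 and J-domain genes had a median of -0.09; the inducible Hspa1a differed by 0.20 (SE 0.18) and Dnajb1, a J-domain partner of Hsc70, by -0.24 (SE 0.18). The 13 measured LAMP and lysosomal membrane genes had a median of 0.12, and Lamp1, the nearest relative of Lamp2, differed by -0.17 (SE 0.13, adjusted p = 0.586). The 7 elongation factors had a median of -0.08, and Eef1a2 differed by -0.05 (SE 0.09). In the genotype and interaction comparisons limma called 0 genes of any list.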

How the data were processed

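The authors deposited log2 expression values for each probe set. Per the submitters' processing notes, RMA, oligo and limma were used; no version, array model, annotation or genome build was stated in what was read here. RMA normalizes arrays to one another, so a shift common to all genes is removed. The table has 28944 rows, of which 5132 have no symbol; 1683 symbols have several rows. Groups came from the sample labels. One WT starved title reads 3, without the S of the others, and was kept. It shares that number with WT starved S3, and both were taken as separate mice.

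The log2 values were fitted with limma 3.58.1 in R 4.3.3 (lmFit, eBayes, 4 group means, 8 residual and 3.384 prior degrees of freedom), with Benjamini-Hochberg adjustment over 20719 genes and calls under 0.05. The script was tested on simulated data. With 3 arrays a group, the number of arrays limits precision. The members and lists were chosen with earlier results of these data known. From each list and comparison, up to 4 called genes with the smallest adjusted p were named, plus close relatives of members. Figures used matplotlib 3.10.9. Alternatives included filters, normalization, array weights, array spread as a block, and leaving out each mouse.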

Additional observations from a re-analysis of the deposited data

Results flagged for a closer look

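Pdgfrb, a marker of hepatic stellate cells, stood out because the genotype difference ran in opposite directions in fed and starved mice, with every mouse on the same side. Its log2 values were 7.48, 7.19 and 7.35 in the WT fed livers, 7.59, 7.52 and 7.56 in the KO fed, 7.16, 7.36 and 7.25 in the WT starved and 7.03, 7.02 and 7.04 in the KO starved. The KO minus WT response to starvation was -0.45 (SE 0.14, adjusted p = 1.00), which did not pass limma's test over all genes. Starved minus fed for Pdgfrb did pass in KO mice, at -0.53 (SE 0.10, adjusted p = 0.0357), and averaged over genotype, at -0.30 (SE 0.07, adjusted p = 0.0312).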

How the results depend on the processing

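Beside the main fit, 28 settings gave 193 counts of called members over all comparisons, of which 183 were 0, as in the main fit. The genotype and interaction comparisons are among them, where the main fit called 0 of all genes. Where a fit calls few genes, a member count of 0 says little. Array weights also gave 0 members in these comparisons, but called more genes. They called 1267 between genotypes in fed mice, 13 in starved mice, 170 averaged over feeding and 106 for the interaction. All 10 member counts above 0 were in the starvation comparisons. With array weights, limma called 6 members in the WT starvation comparison, 7 in KO mice and 8 averaged over genotype, while calling 5600, 7639 and 9499 of all genes; weights ran from 0.206 for WT starved 3 to 6.14 for KO fed F5. Array spread as a block called 1 member in WT mice (Bag1) and 1 averaged over genotype (Stip1), with 1225 and 2235 of 20719 genes called. The SD of each array as a covariate, chosen after seeing the data, called 3 averaged over genotype (Hspa8, Hsp90ab1 and Stip1), with 2394 genes called. A limit of 0.1 on the adjusted p called 1 (Hspa8), with 1658 genes called. The cause was not tested. Leaving out 1 mouse gave 0 to 1 called members averaged over genotype: Bag1 without WT fed F1 (adjusted p = 0.0437), and Hspa8 without WT starved 3 (0.0425) or KO fed F6 (0.0424). Of all genes, 1359, 1608 and 1262 were called in these fits, in that order. No member was called with its sign turned under any setting.

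With the title numbers as a replicate block (consensus correlation 0.0226), 0 members were called in each comparison, with 300, 224 and 1090 genes called in the starvation comparisons in WT, in KO and averaged. WT starved S3 and WT starved 3 share a number within 1 group, so that correlation does not measure pairing alone. The deviations of mice with the same number correlated at -0.17 (F4 and S4), 0.45 (F5 and S5) and 0.53 (F6 and S6). F4 and S4 differed in array spread, while F5 and S5, and F6 and S6, shared it, and its part here was not tested. No pairing was stated, and the numbers were not taken as pairs. Among the list genes, Fkbp4 and Acly passed under all 27 settings, Arntl and Fkbp5 under 26, Aldoa and Nfkbia under 25, Fasn under 23 and Anxa2 under 19, with no sign change. Arntl, Aldoa and Nfkbia did not pass on the narrower arrays alone, nor Fkbp5 and Anxa2 on the wider arrays alone. Those fits leave 1 array in some groups. No signal over background was used, so how far it limits dim rows is unknown.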
